A study of Homo sapiens with 32 samples.

Results

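The MAX network is the set of MYC-type transcription factors and the proteins that share their partner MAX. The 10 genes described are MYC, MYCN, MYCL, MAX, MNT, MXI1, MXD1, MXD3, MXD4 and MGA, taken by symbol from the 18980 coding genes listed in the files, and all 10 were found. They were chosen from earlier results of these same libraries, in which MYC and MYCN were strongly lower under some of the compounds. Their differences from the solvent control are therefore descriptions, given with a standard error and no p-value. For these 10 genes tests are kept for the effect of dose, the change between the times, differences between compounds and the comparison of the controls. RNA-seq of total RNA was made from RH4, an established human alveolar rhabdomyosarcoma line that carries the fusion gene PAX3::FOXO1. Treatment was with 1 of 4 compounds (A485, dCBP, JQAD or IHK-44) at 100 or 1000 nM for 2 or 6 h, which gave 16 treated libraries. The labels place these compounds among inhibitors or degraders of CBP and p300, the paralogous acetyltransferases that act as transcriptional coactivators. A485 is known as an inhibitor of their catalytic domain, while the labels do not say how the others act. The solvent DMSO had a library at each time, as did NT, a control whose abbreviation is left unexplained. All 20 libraries came from this 1 line, and each condition had 1 library. The spread used in every test is thus that between libraries of different dose or time, and nothing in the labels says that libraries came from separate cultures.

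MYC, MYCN and MYCL are basic helix-loop-helix leucine zipper proteins that bind DNA as dimers with MAX, mostly at E-box sites, and recruit coactivators. MXD1, MXI1, MXD3, MXD4 and MNT also need MAX, bind the same sites and recruit the SIN3 corepressor, so that they compete with MYC-type dimers. MGA is a very large protein that pairs with MAX inside a non-canonical polycomb repressive complex. In rhabdomyosarcoma MYCN is known as a gene that PAX3::FOXO1 activates through distal enhancers and that can be amplified, and MYC transcripts and proteins turn over within minutes.

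The promoters of the genes whose levels moved most are printed because the title of the series concerns CpG islands, and because these genes sat on both sides of the response. Windows came from RefSeq on GRCh38.p14 and cover the 250 bases before an annotated start, 5′ to 3′ on the strand of the gene. Each CG dinucleotide is in capitals. 9 of the 10 genes had at least 1 window, all but MYC. The windows are at chr2:15940300-15940549 (plus strand) for MYCN, chr1:39901918-39902167 (minus strand) for MYCL, chr2:69914859-69915108 (plus strand) for MXD1 and chr4:2262110-2262359 (minus strand) for MXD4.
MYCN: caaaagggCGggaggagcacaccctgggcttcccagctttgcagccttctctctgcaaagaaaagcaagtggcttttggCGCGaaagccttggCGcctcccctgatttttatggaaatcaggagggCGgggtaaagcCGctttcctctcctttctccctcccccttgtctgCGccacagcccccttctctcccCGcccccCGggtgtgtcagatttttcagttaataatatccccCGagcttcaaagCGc
MYCL: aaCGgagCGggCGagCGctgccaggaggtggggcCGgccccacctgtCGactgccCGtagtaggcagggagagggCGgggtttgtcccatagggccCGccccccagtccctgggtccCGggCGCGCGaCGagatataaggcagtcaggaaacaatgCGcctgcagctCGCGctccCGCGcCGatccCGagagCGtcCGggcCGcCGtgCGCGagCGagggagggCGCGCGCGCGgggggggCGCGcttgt
MXD1: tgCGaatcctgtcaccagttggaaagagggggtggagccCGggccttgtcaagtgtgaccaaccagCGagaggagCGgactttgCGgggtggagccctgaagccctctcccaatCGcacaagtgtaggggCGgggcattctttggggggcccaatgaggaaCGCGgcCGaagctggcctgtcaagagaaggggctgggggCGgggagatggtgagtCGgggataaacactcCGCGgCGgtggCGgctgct
MXD4: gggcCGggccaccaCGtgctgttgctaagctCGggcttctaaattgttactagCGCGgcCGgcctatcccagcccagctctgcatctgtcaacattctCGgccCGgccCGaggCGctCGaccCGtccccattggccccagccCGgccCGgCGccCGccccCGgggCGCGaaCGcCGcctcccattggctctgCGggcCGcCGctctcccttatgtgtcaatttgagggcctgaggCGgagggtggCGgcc
The window of MYCN held 11 CG dinucleotides and that of MYCL held 35. MXD1 had 16 and MXD4 had 26. Among the 21250 windows of 15026 genes in the same table the median was 17, with quartiles of 6 and 26. MYCN and MXD1 thus lay below the median and MYCL and MXD4 above it, in each case 1 gene that was lower under the compounds and 1 that was higher. MNT, with 35, and MXD3, with 10, marked the extremes of the network together with MYCL. The E-box CACGTG, which reads the same on both strands, occurred once in the MXD4 window, 238 bases before the start, and once in that of MNT, 193 bases before the start. It was in 7.38% of all windows. In the other members' windows these letters were not found.

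Library sizes in expected counts of coding genes ran from 13466631 to 16799327. Rhabdomyosarcoma markers such as DES, FGFR4 and MYOG were all above 1 count per 1000000 coding counts (CPM) in every library, and the sum of the 10, MYCN among them, ran from 1450 to 3450 CPM. Epithelial markers summed to at most 0.147 CPM, blood markers to at most 3.07 and endothelial markers to at most 1.74, with EPCAM, KRT5 and KRT14 at 0 in every library. Fibroblast markers summed to 29.6 to 71.1 CPM, mostly from PDGFRB and COL1A1. The coding rows held 88.7 to 91.8% of the quantified reads in the 8 dCBP and IHK-44 libraries and 92.5 to 95.4% in the other 12. The part of this difference in the results was not tested. CPM are shares of the coding reads, so that neither the number of cells nor the RNA per cell of these bulk samples shows in them. A higher or lower value is relative to the other coding genes of the library. A change of all transcripts together would not be seen.

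MYC, the widely expressed member of the family, had 75.6 CPM after 2 h of DMSO and 67.6 CPM after 6 h, and NT gave 63.4 and 73.3 CPM. The 4 JQAD libraries lay between 70.4 and 74.0 CPM, inside that range. A485 at 1000 nM gave 5.76 CPM at 2 h and 5.54 at 6 h, and at 100 nM 37.4 and 43.7 CPM. After A485 MYC was thus low from the first time on and did not go lower, and the 2 doses lay far apart. dCBP gave 8.91 CPM at 100 nM and 6.95 at 1000 nM at 2 h, then 2.05 and 1.47 CPM at 6 h. IHK-44 gave 5.86 and 5.20 CPM at 2 h and 0.833 and 1.26 CPM at 6 h, in the order of 100 and 1000 nM. No library of A485, dCBP or IHK-44 overlapped the DMSO, NT and JQAD libraries. Against DMSO of the same time, MYC was 13.1-fold lower with 1000 nM A485 at 2 h and 12.2-fold lower at 6 h. With 1000 nM dCBP it was 10.9-fold and then 45.8-fold lower, and with 1000 nM IHK-44 14.6-fold and then 53.5-fold lower. The lowest library, 100 nM IHK-44 at 6 h, rested on 14 counts (95% exact Poisson interval 0.456 to 1.40 CPM) and was 81.1-fold below DMSO.

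MYCN, the family member tied to neural and embryonal tumours, followed MYC closely. It was at 67.1 and 73.2 CPM in DMSO at 2 and 6 h, at 61.6 and 70.0 CPM in NT, and between 66.6 and 71.9 CPM in JQAD. A485 at 1000 nM gave 6.60 and 7.72 CPM at 2 and 6 h, and 100 nM gave 30.9 and 35.2 CPM. The higher A485 dose was again low at both times, and the lower dose sat midway. dCBP gave 12.6 CPM at 100 nM and 8.57 at 1000 nM at 2 h, and 2.69 and 3.24 CPM at 6 h. IHK-44 gave 5.93 and 5.05 CPM at 2 h and 3.33 and 1.02 CPM at 6 h. The lowest value, 1000 nM IHK-44 at 6 h, rested on 17 counts (0.596 to 1.64 CPM) and was 71.6-fold below DMSO. In the plot of levels by library, the lower bound of every control or JQAD value of MYC and MYCN is above every value of A485, dCBP and IHK-44.

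MYCL, the third paralog, was lower by less and more slowly. Its 8 DMSO, NT and JQAD libraries ran from 53.3 to 77.4 CPM with a median of 67.1. At 2 h the dCBP and IHK-44 libraries lay between 31.4 and 39.3 CPM, and at 6 h between 12.1 and 17.9 CPM. A485 at 1000 nM gave 35.9 CPM at 2 h and 15.6 at 6 h, and 100 nM gave 48.7 and 31.8 CPM. No treated library other than JQAD reached the control range. The distance to DMSO of the same time was 2.01-fold for 1000 nM A485 at 2 h and 3.83-fold at 6 h, and for 1000 nM IHK-44 2.30-fold and 4.66-fold.

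**Figure D1:**
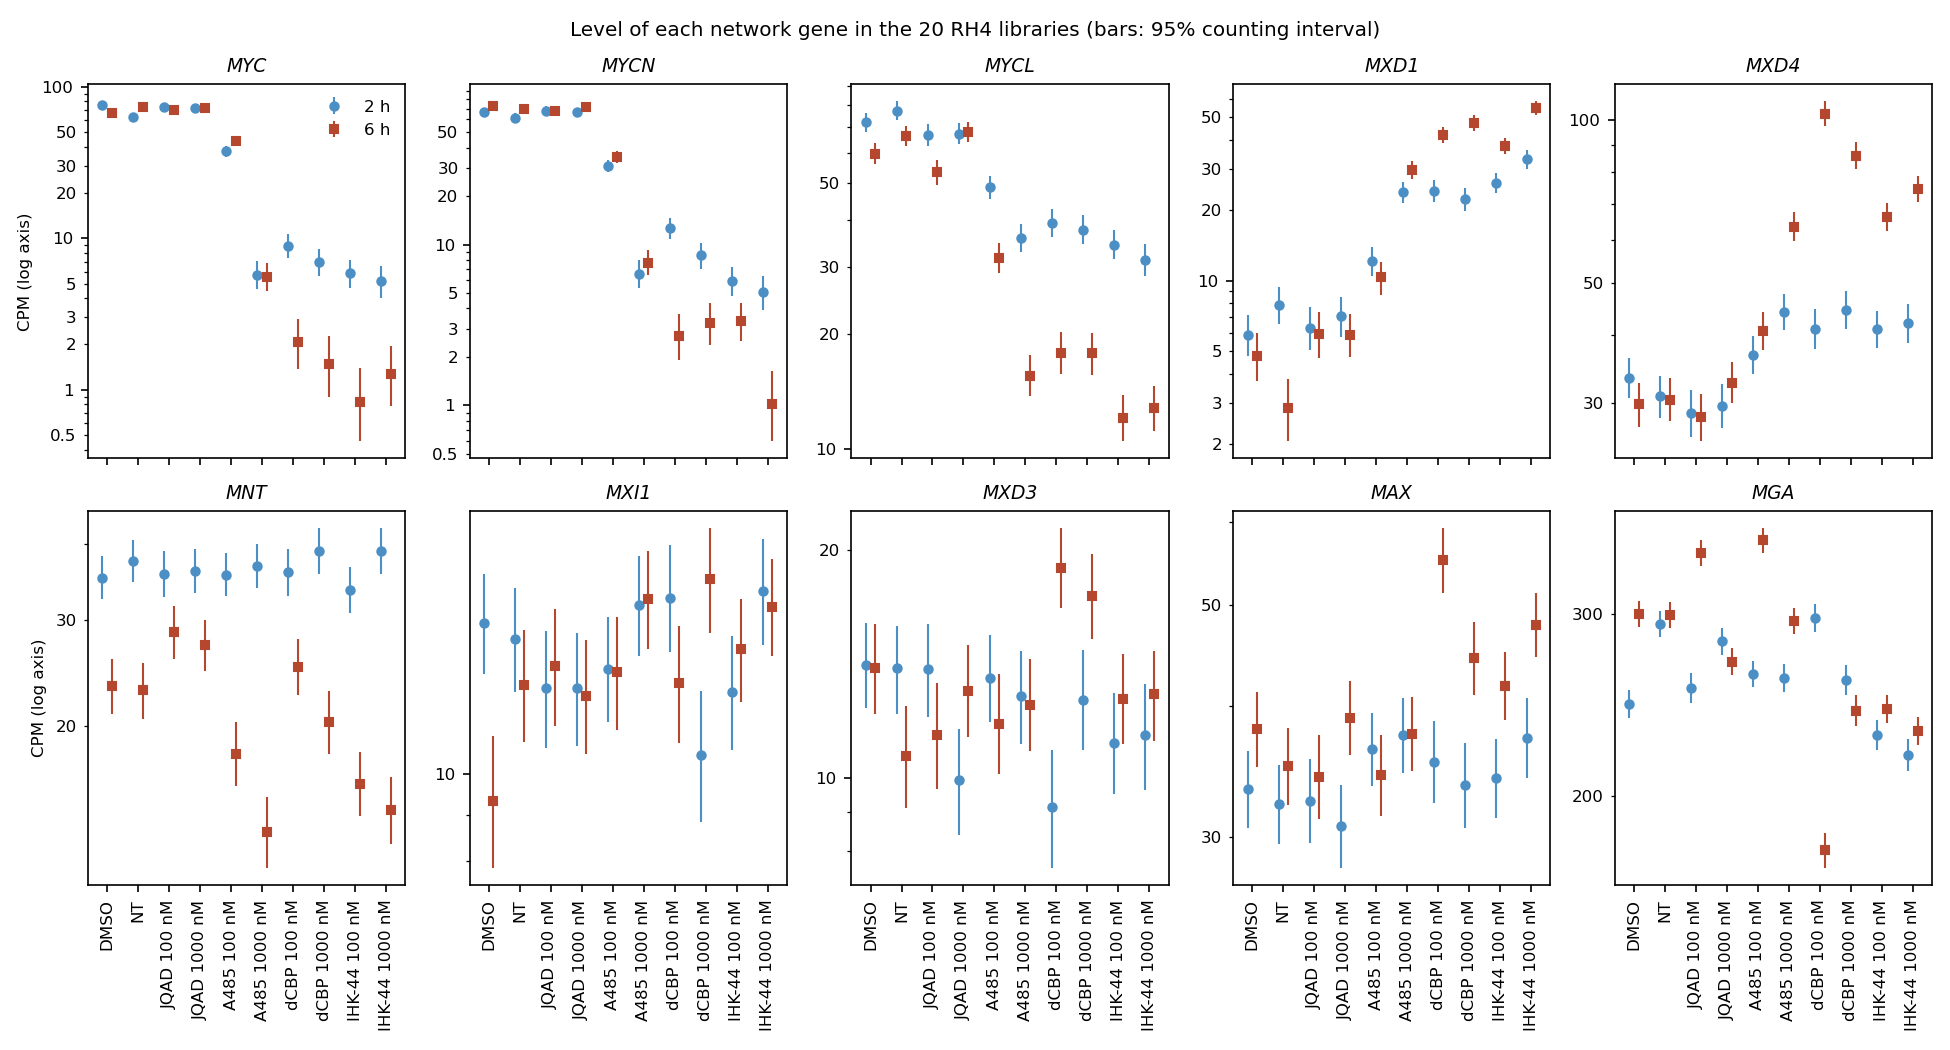
Level of each of the 10 genes in CPM (log axis) by condition, at 2 h (circles) and 6 h (squares), 1 library per point with its 95% counting interval. MYC lies between 63.4 and 75.6 CPM in DMSO, NT and JQAD and between 0.833 and 2.05 CPM in the 6 h libraries of dCBP and IHK-44, while MXD1 and MXD4 go the other way.

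MXD1, a MAX partner known to appear when cells leave the cycle and differentiate, was the network gene with the largest gain. DMSO gave 5.88 CPM at 2 h and 4.78 at 6 h, NT gave 7.88 and 2.86 CPM, and JQAD lay between 5.85 and 7.05 CPM. The 2 h libraries of dCBP and IHK-44 held 22.3 to 33.0 CPM, and their 6 h libraries 37.8 to 54.7 CPM. A485 at 1000 nM gave 23.9 and 29.8 CPM at 2 and 6 h, and 100 nM gave 12.1 and 10.3 CPM. All 12 libraries of these compounds were above all 8 DMSO, NT and JQAD libraries. Relative to DMSO of the same time, 1000 nM IHK-44 was 5.62-fold higher at 2 h and 11.4-fold higher at 6 h, and 1000 nM dCBP was 3.80-fold and 9.87-fold higher. The controls themselves differ here, and NT at 6 h rested on 44.4 expected counts. Against NT in place of DMSO, the log2 ratio of 1000 nM IHK-44 at 6 h went from 3.27 to 3.85.

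MXD4, a related repressor, was also higher, and more so at 6 h than at 2 h. The 8 DMSO, NT and JQAD libraries ran from 28.3 to 33.4 CPM. The dCBP and IHK-44 libraries lay between 41.0 and 44.6 CPM at 2 h and between 66.1 and 103 CPM at 6 h, with the highest value after 100 nM dCBP. A485 gave 36.9 CPM at 100 nM and 44.2 at 1000 nM at 2 h, and 40.8 and 63.5 CPM at 6 h. Every library of these compounds was above the control and JQAD range.

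The other repressors of this class showed small differences. MXI1, also called MXD2, ran from 9.33 to 16.4 CPM over all 20 libraries, and its lowest value was the DMSO library of 6 h. The 6 h ratios of MXI1 therefore lean on that library: for 1000 nM dCBP the log2 ratio was 0.76 against DMSO and 0.36 against NT. MXD3, which is expressed in dividing cells, ran from 9.93 to 14.1 CPM in DMSO, NT and JQAD. It was at 9.16 CPM after 100 nM dCBP at 2 h and at 18.9 and 17.4 CPM after 100 and 1000 nM dCBP at 6 h, the only libraries above the control range.

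MNT, a broadly expressed repressor that pairs with MAX, changed with time in the controls as well. At 2 h all 10 libraries were between 33.6 and 39.0 CPM. At 6 h DMSO and NT were at 23.3 and 22.9 CPM and JQAD at 28.6 and 27.2 CPM. At that time A485 gave 18.01 CPM at 100 nM and 13.4 at 1000 nM, and IHK-44 gave 16.1 and 14.6 CPM. dCBP gave 25.1 and 20.4 CPM, on either side of the controls. A485 and IHK-44 at 6 h were thus below every other library.

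MAX, the obligate partner, lay above the range of the 8 DMSO, NT and JQAD libraries of both times only after 6 h of dCBP and IHK-44. It ran from 30.8 to 39.0 CPM in DMSO, NT and JQAD and from 33.6 to 37.4 CPM in dCBP and IHK-44 at 2 h. At 6 h these compounds gave 41.8 to 55.2 CPM, with the highest value after 100 nM dCBP. MGA was at 246 to 344 CPM in the controls and JQAD, and at 177 CPM after 100 nM dCBP at 6 h and 242 CPM after 1000 nM. IHK-44 gave 229 and 219 CPM at 2 h and 243 and 231 CPM at 6 h. MGA is the longest of the 10 transcripts. In the library with 177 CPM, 100 nM dCBP at 6 h, the 842 genes with transcripts of at least 8000 bases had a median log2 ratio to DMSO of -0.15 and the 1475 genes under 1500 bases one of 0.40, while MGA was at -0.76. In the other 6 h libraries of dCBP and IHK-44 the median of the long genes was slightly above DMSO. It was 0.12 for 1000 nM dCBP and 0.07 and 0.06 for 1000 and 100 nM IHK-44. MGA was at -0.31, -0.38 and -0.30 in the same libraries. The part of transcript length in the MGA values was not tested. In the 6 h libraries of dCBP and IHK-44 the median log2 ratio of all 12174 genes with a mean of at least 1 CPM was between 0.16 and 0.22. The ratio of MAX was 0.52 and 0.22 for 100 and 1000 nM dCBP and 0.13 and 0.32 for 100 and 1000 nM IHK-44, so that 100 nM dCBP stood furthest above this median and 100 nM IHK-44 was below it.

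**Figure D2:**
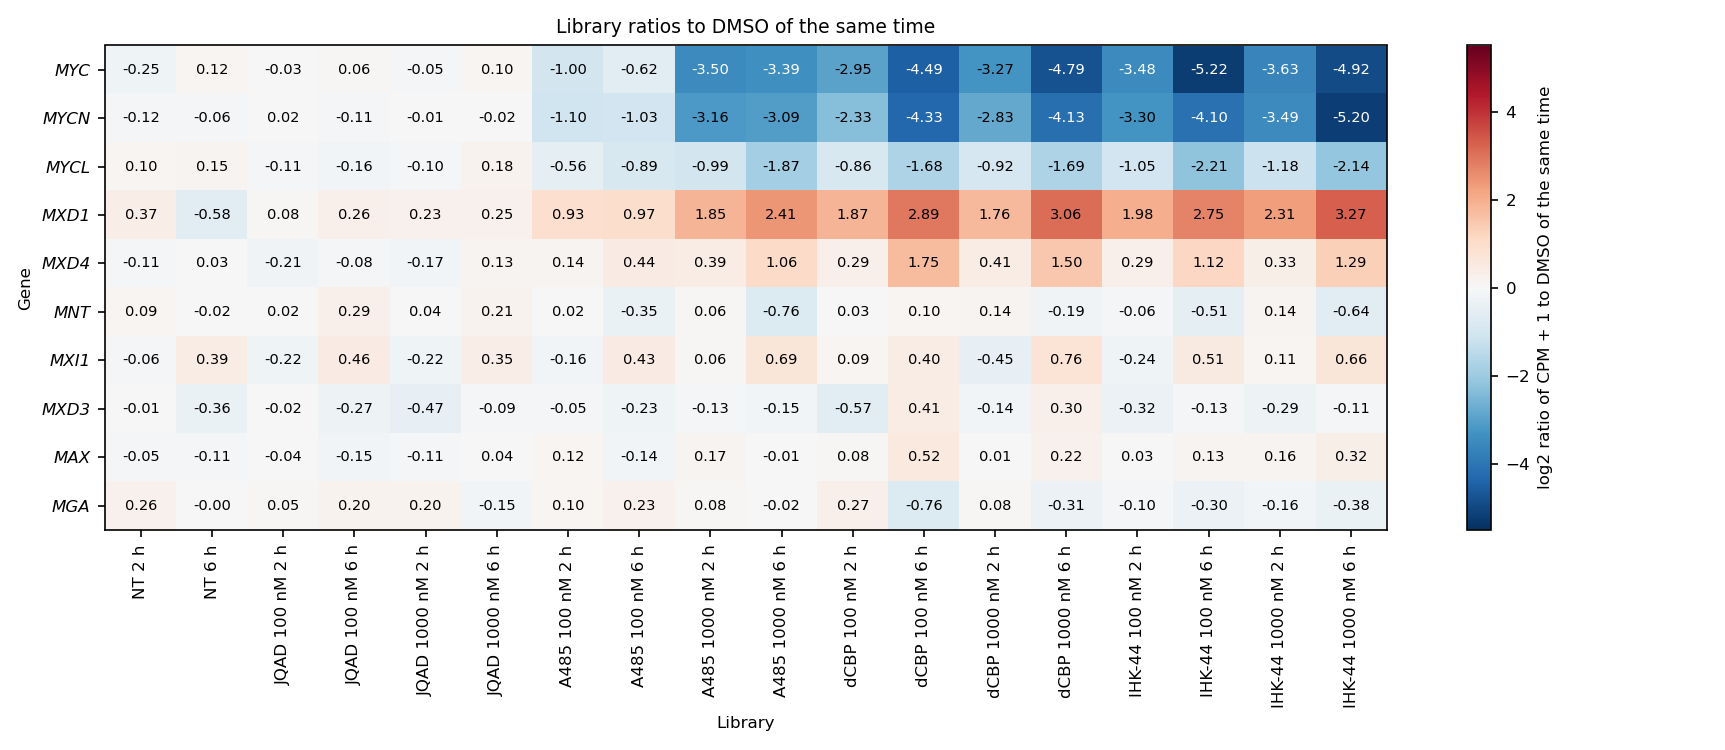
Log2 ratio of each gene's CPM + 1 to that in time-matched DMSO, by library. Blue cells are below DMSO, as for MYC at -5.22 after 100 nM IHK-44 for 6 h, and red cells above, as for MXD1 at 3.27 after 1000 nM IHK-44 for 6 h.

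Levels of different genes were compared per transcript length, as FPKM. In DMSO and NT MYCN was the most abundant transcript of the network at 26.7 to 31.3 FPKM. MGA followed at 21.2 to 26.2 FPKM, then MYCL at 18.5 to 24.4, MAX at 17.2 to 21.1 and MYC at 16.4 to 19.6 FPKM. Of these, MGA and MYCL, MYCL and MAX, MYCL and MYC, and MAX and MYC overlapped, while MYCN was above MGA in all 4 libraries. MXD3 at 10.8 to 13.7 FPKM, MXD4 at 7.70 to 8.69, MNT at 4.67 to 7.91, MXI1 at 2.81 to 4.45 and MXD1 at 0.50 to 1.39 FPKM came next, and only MXD4 and MNT overlapped among them. After 6 h of 1000 nM IHK-44 the order was different, with MAX at 24.9 FPKM first, MGA at 20.5 and MXD4 at 18.6 next, and MYC at 0.33 and MYCN at 0.36 FPKM last.

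The balance between MYC-type genes and the other MAX partners moved accordingly. MYC, MYCN and MYCL together held 63.4 to 71.5 FPKM in DMSO, NT and JQAD, and the 6 partners MNT, MXI1, MXD1, MXD3, MXD4 and MGA held 53.9 to 61.0 FPKM. The MYC-type share of the FPKM of all 9 genes was 51.4 to 56.6% in these 8 libraries. In dCBP and IHK-44 it was 18.1 to 24.2% at 2 h and 6.34 to 8.96% at 6 h. A485 at 1000 nM gave 19.6 and 12.5% at 2 and 6 h, and 100 nM gave 38.8 and 36.3%. What was left was mostly MYCL, whose share of the MYC-type FPKM was 26.2 to 36.1% in the controls and JQAD and 66.8 to 84.9% in dCBP and IHK-44 at 6 h. These shares describe transcripts and not proteins.

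**Figure D3:**
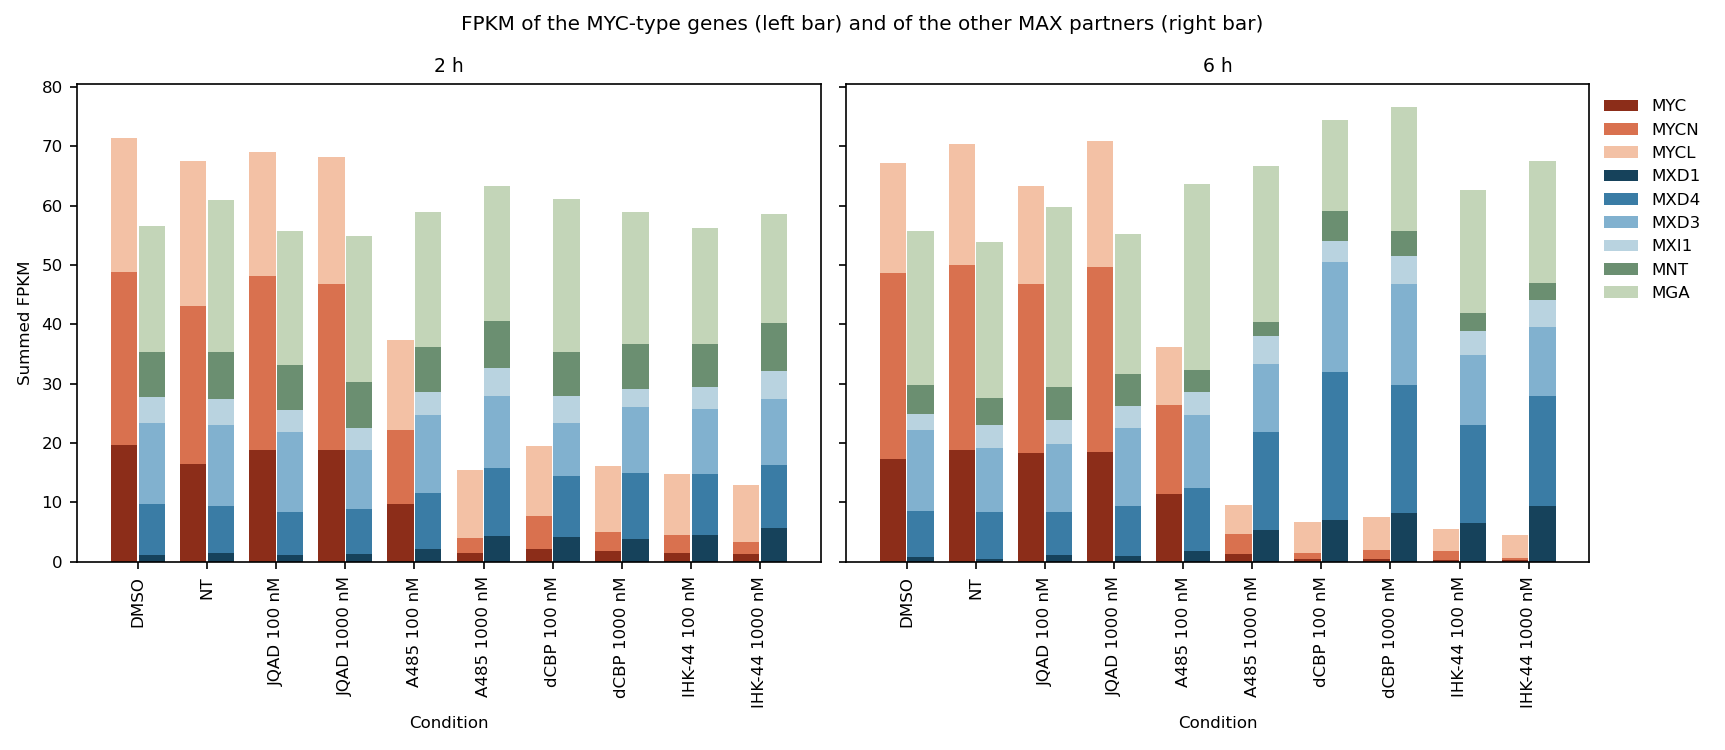
Stacked FPKM of MYC, MYCN and MYCL (left bar) and of the other MAX partners (right bar) by condition, at 2 h and at 6 h, 1 library per pair of bars. The MYC-type bars are at 63.4 to 71.5 FPKM in DMSO, NT and JQAD and at 4.57 to 7.54 FPKM in dCBP and IHK-44 at 6 h, when the partner bars reach 62.6 to 76.6 FPKM.

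A fit over all 20 libraries with edgeR's quasi-likelihood model put 1 value on each compound, taking its 4 libraries of 2 doses and 2 times together. The standard error (SE) rests on 1 spread per gene, estimated over all 20 libraries, which holds differences between doses and times. A compound's SE is thus not the spread of its own libraries. For MYC the log2 difference from DMSO was -1.66 (SE 0.66) for A485, -4.08 (SE 0.73) for dCBP, -4.66 (SE 0.75) for IHK-44 and 0.03 (SE 0.67) for JQAD. For MYCN the values were -1.86 (SE 0.56), -3.55 (SE 0.60), -4.37 (SE 0.62) and -0.03 (SE 0.57), in the same order. MYCL came to -1.13 (SE 0.30), -1.43 (SE 0.30), -1.77 (SE 0.30) and -0.03 (SE 0.31). MXD1 came to 1.74 (SE 0.44), 2.52 (SE 0.45), 2.68 (SE 0.45) and 0.24 (SE 0.45), and MXD4 to 0.44 (SE 0.23), 0.92 (SE 0.24), 0.64 (SE 0.23) and -0.09 (SE 0.23). The differences of MAX, MNT, MXI1, MXD3 and MGA lay between -0.37 and 0.18. The value of A485 depends on its lower dose: without the library of 100 nM at 6 h it was -2.53 for MYC and -2.51 for MYCN. The value of MXD4 moved with the DMSO library left out, from 0.61 to 1.25 for dCBP and from 0.34 to 0.98 for IHK-44. NT was not distinguished from DMSO for any member (adjusted p = 1.0 for each by edgeR, log2 differences between -0.20 and 0.14). Over all 13260 genes 0 were called, with 104 at an unadjusted p under 0.05. With the shared spread the interval for MYC ran from -1.73 to 1.64, so this test could not exclude sizeable differences.

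Differences between A485, dCBP and IHK-44, whose doses and times match, were then tested with edgeR for 3 pairs of compounds and the 8 members other than MYC and MYCN, for which no test is given. None of these 8 passed an adjusted p of 0.05 in any pair. The share of all 13260 genes called was 0% for IHK-44 minus dCBP (edgeR, 883 genes at an unadjusted p under 0.05, and 1 gene called by DESeq2), 0.724% for A485 minus dCBP and 0.882% for A485 minus IHK-44. For MXD1 the log2 difference between IHK-44 and dCBP was 0.17 with a 95% interval from -0.49 to 0.82, and for MYCL it was -0.35 with an interval from -0.91 to 0.22. A485 minus IHK-44 was -0.94 for MXD1 (interval -1.61 to -0.27, edgeR adjusted p = 0.1546) and 0.64 for MYCL (interval 0.08 to 1.20, edgeR adjusted p = 0.2288). For MYC and MYCN, as descriptions, IHK-44 minus dCBP was -0.59 (SE 0.75) and -0.82 (SE 0.60). A485 stood further from both: A485 minus IHK-44 was 3.00 (SE 0.69) for MYC and 2.51 (SE 0.57) for MYCN, and A485 minus dCBP was 2.42 (SE 0.66) and 1.69 (SE 0.54).

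**Figure D4:**
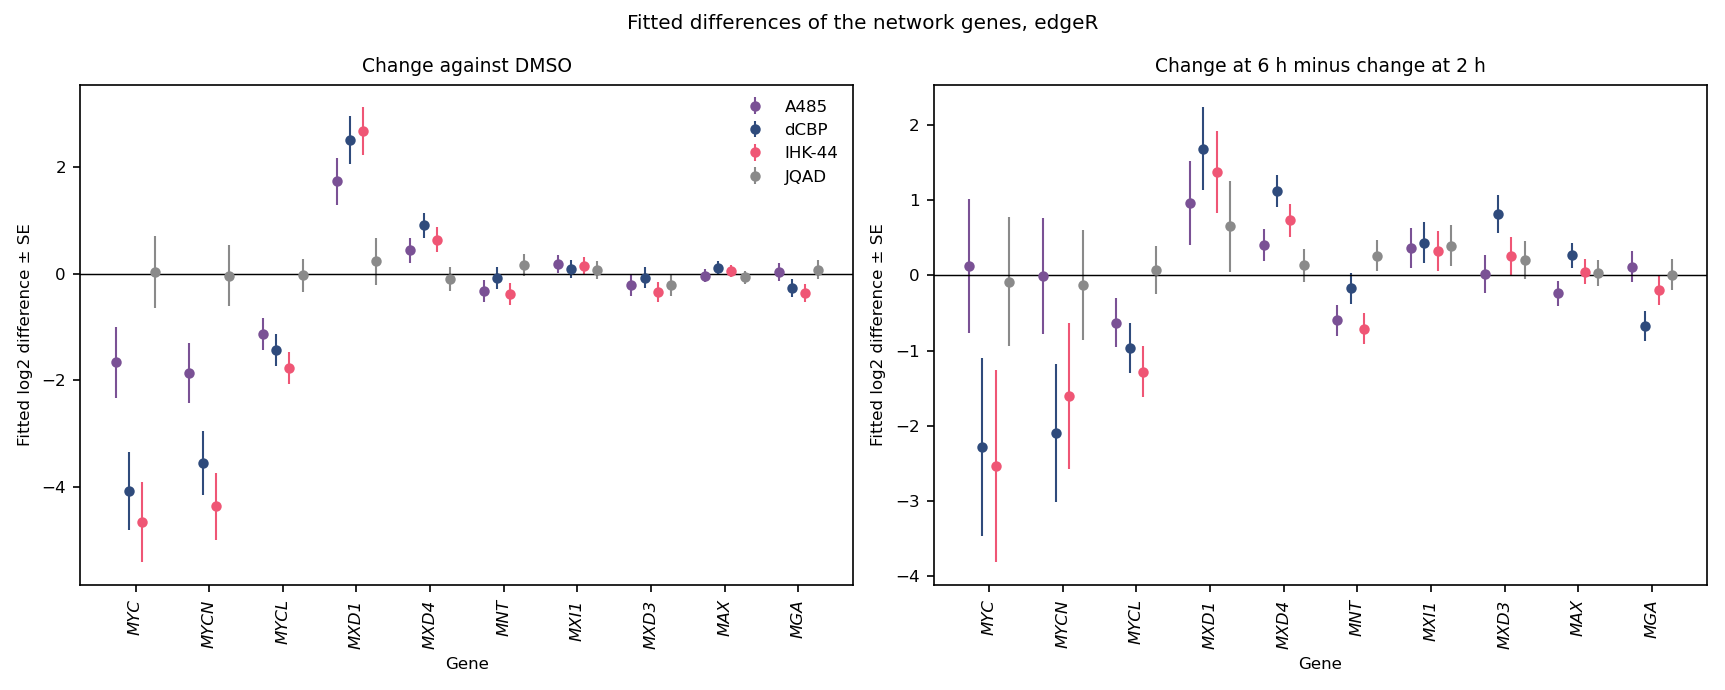
Fitted log2 difference of each gene with its SE for A485, dCBP, IHK-44 and JQAD, from DMSO over both times (left) and as the change at 6 h minus the change at 2 h (right). MYC and MYCN are between -3.55 and -4.66 for dCBP and IHK-44 on the left, and MXD4 is at 1.12 for dCBP on the right.

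Dose was tested within each compound as 1000 nM minus 100 nM, over both times, with edgeR. MYC and MYCN, which earlier results singled out for their low levels, are given without a test. For A485 the dose difference was -2.91 for MYC and -2.28 (SE 0.23) for MYCN, and both were lower at 1000 nM in 2 of 2 times. MXD1 rose with dose by 1.18 on the log2 scale (SE 0.16, edgeR adjusted p = 0.006351), in 2 of 2 times. MYCL did not pass, at -0.79 (SE 0.17, edgeR adjusted p = 0.05581). Of the 13137 genes tested 0.929% were called for A485. The MXD1 call rested on the 6 h libraries: its edgeR adjusted p was 0.359 without 1000 nM A485 at 6 h and 0.3583 without 100 nM at 6 h, against 0.01255 and 0.01274 without those of 2 h. No other member given a test passed for A485, and none passed for IHK-44, dCBP or JQAD, where 0.107%, 0% and 0% of genes were called by edgeR, with 150 genes for dCBP and 262 for JQAD at an unadjusted p under 0.05 and none called by DESeq2. The fitted dose difference of MYC was -0.41 for dCBP, with 1000 nM lower at both times. For IHK-44 it was 0.00, with 1000 nM lower at 2 h and higher at 6 h, the latter on 14 and 21 counts. With 1 library left out it ran from -0.53 to -0.37 for dCBP and from -0.20 to 0.55 for IHK-44. Both values were small beside the -2.91 of A485. MYCN under IHK-44 was at -0.78 (interval -1.62 to 0.05). The IHK-44 doses were close for MYCN at 2 h and apart at 6 h, and the difference was -1.74 without the 1000 nM library of 2 h and -0.26 without that of 6 h.

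Whether the response was different at 6 h from that at 2 h was tested as an interaction, with DMSO and NT together as the control and the 2 doses as replicates. For dCBP MXD4 gained 1.12 more at 6 h than at 2 h on the log2 scale (SE 0.22, edgeR adjusted p = 0.007826), and MGA changed by -0.67 (SE 0.20, edgeR adjusted p = 0.04757). The share of all genes called was 9.06%. For IHK-44 MYCL changed by -1.28 (SE 0.33, edgeR adjusted p = 0.02274), MNT by -0.71 (SE 0.21, edgeR adjusted p = 0.03935) and MXD4 by 0.73 (SE 0.22, edgeR adjusted p = 0.04212), against 9.89% of all genes. The members called were 2 of 10 for dCBP and 3 of 10 for IHK-44, too few to be read against these shares. MYC, as a description, differed by -2.28 (SE 1.18) for dCBP and -2.53 (SE 1.28) for IHK-44, with 14 to 29 counts in the 6 h libraries. MXD1 did not pass for either compound. With 1 library left out, its values ran from 1.37 to 2.12 for dCBP and from 1.07 to 1.82 for IHK-44. These were above those of MXD4, from 0.98 to 1.27 and from 0.66 to 0.82. No member passed for A485 or JQAD, where 0.00754% and 0% of genes were called by edgeR (222 genes at an unadjusted p under 0.05 for JQAD, none by DESeq2). Only the dCBP call of MXD4 held in each of the 20 fits that left out 1 library; the other 4 were lost in some of them.

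The genes around the network were taken from 8 lists, also chosen with earlier results of these libraries in view. Their counts are therefore no independent evidence of a direction. The calls and adjusted p-values of single list genes against DMSO are likewise descriptions and no independent tests. Of 81 list genes that could be tested, 14 fell and 7 rose under dCBP and 13 fell and 3 rose under IHK-44 against DMSO (edgeR, adjusted p under 0.05). A485 gave 1 that fell and JQAD 0. Over all 13260 genes 11.8% were called lower and 11.8% higher for dCBP, 9.21% lower and 7.74% higher for IHK-44, 0.158% lower and 0.113% higher for A485, and 0% for JQAD (143 genes at an unadjusted p under 0.05, none by DESeq2). The median log2 difference of the list genes was -0.08 for dCBP and -0.09 for IHK-44, beside 0.05 and 0.04 over all genes. These calls depend on the DMSO libraries. Without the DMSO library of 6 h, the count was 0 for dCBP and 4 for IHK-44, and without that of 2 h 10 and 9. With the NT libraries added to the control it was 35 and 24. Under RLE scaling 15 list genes fell and 2 rose with dCBP, and 15 fell and 1 rose with IHK-44. Over all genes RLE scaling gave 20 lower and 6 higher calls for A485. The dCBP calls were then 1772 lower and 1356 higher, and those of IHK-44 1435 lower and 877 higher.

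Of 25 genes widely used as targets that MYC proteins activate, 4 fell and 2 rose under dCBP and 3 fell and 1 rose under IHK-44, with medians of -0.16 and -0.13. Over all 13260 genes 11.8% were called lower and 11.8% higher for dCBP, and 9.21% lower and 7.74% higher for IHK-44. Whether the 25 genes differ from these shares was not tested. TFAP4, a helix-loop-helix repressor of CDKN1A that MYC induces, was at 31.0 to 36.3 CPM in DMSO, NT and JQAD and at 7.20 to 9.68 CPM after 6 h of IHK-44. It fell by 1.29 on the log2 scale under dCBP (log2 -1.29, SE 0.41, edgeR adjusted p = 0.03415) and by 1.26 under IHK-44 (log2 -1.26, SE 0.41, edgeR adjusted p = 0.04476). CCND2, the D-type cyclin that RH4 expresses strongly, was at 1710 to 1960 CPM in the controls and JQAD, at 806 to 859 CPM after 6 h of dCBP and at 786 to 988 CPM after 6 h of IHK-44. It fell by 0.82 and 0.76. E2F2, a cell cycle transcription factor, fell by 0.62 and 0.94. SHMT1, an enzyme of one-carbon metabolism, rose by 0.39 and 0.40, and RCC1, the guanine nucleotide exchange factor of Ran, rose by 0.31 under dCBP. Most of the list, including ribosome and nucleotide synthesis genes, did not pass in either compound. In the test of time dependence 6 of the 25 passed with a lower response at 6 h under dCBP and 6 under IHK-44, and none with a higher one. Calls over all 13260 genes also leaned that way, with 849 lower and 353 higher for dCBP and 1029 lower and 283 higher for IHK-44. Among these the change of TFAP4 was the largest, -1.56 (SE 0.40, edgeR adjusted p = 0.02462) and -1.98 (SE 0.40, edgeR adjusted p = 0.00557).

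Of 8 genes described as repressed by MYC or MYCN, 3 fell and 2 rose under each of dCBP and IHK-44, with medians of 0.04 and 0.03. These 8 are too few to be read against the shares over all genes. Those were 11.8% lower and 11.8% higher for dCBP, and 9.21% lower and 7.74% higher for IHK-44. GADD45A, a stress-induced growth arrest gene, was at 65.1 to 80.7 CPM in DMSO, NT and JQAD, at 30.9 to 34.3 CPM after 2 h of dCBP and at most 21.9 CPM after 2 h of IHK-44. It fell by 1.49 under dCBP and 2.05 under IHK-44 (edgeR adjusted p = 0.004331 and 0.0005945). CDKN1A, which encodes the cyclin-dependent kinase inhibitor p21, ran from 46.0 to 81.8 CPM in the same 8 libraries and from 14.6 to 20.6 CPM after 6 h of IHK-44. It fell under A485 by 1.13 (edgeR adjusted p = 0.0477), under dCBP by 0.93 and under IHK-44 by 1.35. NDRG1, a stress-responsive gene, fell by 0.67 and 0.70. NDRG4, at 0.699 to 2.06 CPM in the controls and JQAD, rose by 1.21 and 1.24. Its libraries of dCBP at 2 h (1.47 to 1.70 CPM) and IHK-44 at 6 h (1.92 to 2.02 CPM) lay inside that range. Those of dCBP at 6 h and IHK-44 at 2 h, from 1.99 and 1.91 CPM upward, overlapped it. Both NDRG4 calls were lost with NT added to the control (edgeR adjusted p = 0.08864 and 0.08373). CEBPA, a differentiation factor, rose by 1.07 and 0.78. The list thus held calls in both directions.

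**Figure D5:**
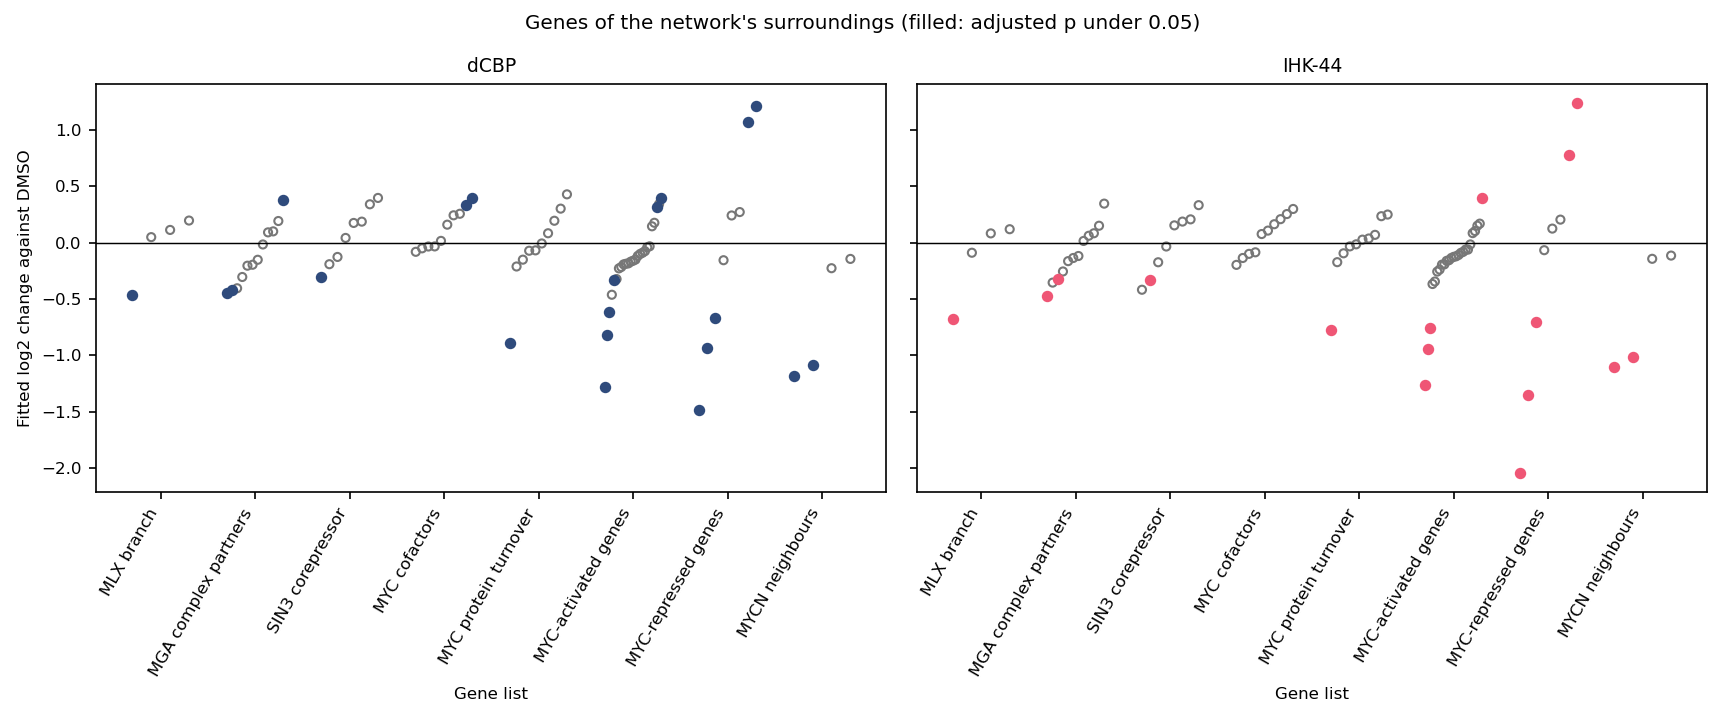
Fitted log2 change against DMSO of the genes in the 8 lists for dCBP (left) and IHK-44 (right), filled where the adjusted p was under 0.05. GADD45A is lowest at -1.49 and -2.05, and of the 81 genes 60 are open circles for dCBP and 65 for IHK-44.

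The remaining lists held 4 to 12 tested genes each, too few to be read against the shares called over all genes. Those shares were 11.8% lower and 11.8% higher for dCBP, and 9.21% lower and 7.74% higher for IHK-44. In the MLX branch, which meets the network through shared MXD and MNT partners, TXNIP was 1 of 4 genes to pass and fell by 0.47 under dCBP and 0.68 under IHK-44. Of 12 partners of MGA, CBX3 and HDAC2 fell under dCBP by 0.44 and 0.42 and L3MBTL2 rose by 0.37, and YAF2 and HDAC2 fell under IHK-44 by 0.47 and 0.32. Of 8 SIN3 corepressor genes SIN3A fell, by 0.31 and 0.33. Of 10 MYC cofactors KAT2A rose by 0.40 and TRRAP by 0.33 under dCBP and none passed under IHK-44. Of 10 regulators of MYC protein turnover, SKP2, an F-box protein that ubiquitinates MYC, fell by 0.89 and 0.77. It went from 973 to 1000 CPM in DMSO, NT and JQAD to 375 to 444 CPM after 6 h of dCBP. Of 4 coding genes listed as MYCN neighbours on chromosome 2, TRIB2, a pseudokinase gene, fell by 1.18 and 1.10. CYRIA, a RAC1 regulator, fell by 1.09 and 1.01, while DDX1 and NBAS did not pass. Distances of these genes to MYCN were not measured here.

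Of the 37 list calls named for A485, dCBP and IHK-44, those of TXNIP, E2F2, CDKN1A and GADD45A under IHK-44 held in each of 20 fits without 1 library. Without the DMSO library of 6 h all 20 named dCBP calls were lost, as were 12 of 16 for IHK-44 and the 1 for A485. Over the 20 fits the highest adjusted p was 0.4208 for dCBP, for TFAP4, and the A485 call of CDKN1A passed in 4 of 20, with an adjusted p up to 0.5185. Each of the doses at 6 h also carries calls: without 1000 nM IHK-44 at 6 h 10 of 16 were lost, and without 1000 nM dCBP at 6 h 10 of 20. The dCBP rises of KAT2A, TRRAP, L3MBTL2, SHMT1 and RCC1 passed neither under RLE scaling nor with no filter. The same held for the rise of SHMT1 under IHK-44, and that of CEBPA under IHK-44 was lost under RLE scaling alone. With NT added to the control, the rises of NDRG4 under dCBP and IHK-44 and of TRRAP under dCBP were lost.

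The genes whose levels over the 20 libraries were most like those of MYC included MYCN. By Pearson's r of log2(CPM + 1), among 12173 other genes with a mean of at least 1 CPM, MYC was closest to IRF2BP2 (r = 0.992), MYCN (0.988), HS3ST3B1 (0.986), DUSP4 (0.984) and PHLDA1 (0.983). MYCN was closest to MYC (0.988), IRF2BP2 (0.986), ERRFI1 (0.984), STX11 (0.983) and PHLDA1 (0.983). All of these points share the same libraries, and 12 of the 20 libraries received A485, dCBP or IHK-44. IRF2BP2, a corepressor gene, was at 92.5 to 111 CPM in DMSO, NT and JQAD and at 24.8 to 27.1 CPM after 6 h of dCBP. DUSP4, a MAP kinase phosphatase gene, was at 31.0 to 40.4 and 8.63 to 9.42 CPM, and PHLDA1 at 45.7 to 57.0 and 5.88 to 6.71 CPM. These 3 genes stayed at a larger part of their control level than MYC and MYCN did.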

How the data were processed

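RNA-seq of 20 RH4 libraries was used, and the 11 ChIP-seq samples and the ChRO-seq sample of the series were not analysed here. The deposited tables hold estimated counts (expected counts), TPM, FPKM and a normalised value per coding gene. The submitters' processing notes list STAR 2.5.3a and RSEM 1.3.3 with hg38, without saying what each was used for. The normalised values deposited by the authors sum to 1000000 over the coding rows of each library and were used as CPM. TPM deposited by the authors were scaled over all quantified genes. The coding rows held 27.91 to 35.43% of TPM in the 8 dCBP and IHK-44 libraries and 37.91 to 53.92% in the other 12. Ratios by TPM between these groups carry this difference. FPKM deposited by the authors were scaled to all quantified reads. Expected counts, 88.2% of them whole, were rounded and tested with edgeR 4.0.16 (R 4.3.3; TMM, filterByExpr, quasi-likelihood, Benjamini-Hochberg over all genes, threshold 0.05), with DESeq2 1.42.0 as an alternative. Library ratios used log2(CPM + 1), which understates changes of low genes. Counting intervals are exact Poisson at 95% and cover counting error only. Intervals of differences used the residual degrees of freedom, 13 for compounds.

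The fits were tested on simulated counts. All library names carry the same run tag, so no batch could be compared. The members and gene lists were chosen with earlier results of these data known. All 10 members are named. From each of the 8 lists of 84 genes, of which 83 were found, up to 3 falls and 3 rises with the largest mean of the fitted dCBP and IHK-44 changes are named, and for MYC and MYCN the 5 most alike genes. LDHA, called for dCBP, is the 1 called gene outside that rule. Alternatives were RLE scaling, no filter, DESeq2, NT added to the control or in place of DMSO, each library left out, another pseudocount, TPM, and TMM factors in the ratios. Promoter windows are RefSeq's.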

Additional observations from a re-analysis of the deposited data

Results flagged for a closer look

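In 5 cases the difference between the response at 6 h and that at 2 h passed edgeR's interaction test for a member (adjusted p under 0.05). Under dCBP the interaction was 1.125 on the log2 scale for MXD4 and -0.6734 for MGA, and under IHK-44 it was -1.279 for MYCL, -0.7082 for MNT and 0.7303 for MXD4. With each library left out in turn, the MXD4 interaction for dCBP stayed between 0.98 and 1.27 and passed in 20 of 20 fits. MYCL passed in 13 of 20 fits (log2 -1.36 to -1.17, adjusted p up to 0.1056) and MXD4 under IHK-44 in 9 of 20 (log2 0.66 to 0.82, adjusted p up to 0.1567). MGA passed in 5 of 20 (log2 -0.88 to -0.47, adjusted p up to 0.2085) and MNT in 4 of 20 (log2 -0.80 to -0.62, adjusted p up to 0.1722). The MGA value was -0.47 without the library of 100 nM dCBP at 6 h and -0.88 without that of 1000 nM.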

How the results depend on the processing

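No pairing by replicate was possible because each condition had 1 library and the labels give no replicate numbers. Time was a term of the compound fit, and compound and time were a block in the dose fit. No called value changed sign under any alternative run. RLE scaling left the totals of calls in both directions together within 1.5 times, while higher calls went from 15 to 6 for A485 and, among list genes, from 7 to 2 for dCBP and from 3 to 1 for IHK-44. DESeq2 called 385 genes for A485 against DMSO in place of 36, 1 in place of 0 for IHK-44 minus dCBP, 514 in place of 96 for A485 minus dCBP, 425 in place of 117 for A485 minus IHK-44, 232 in place of 122 for the A485 dose, 30 in place of 14 for the IHK-44 dose, 17 in place of 1 for time dependence of A485, and 6 list genes in place of 1 for A485. With DMSO and NT pooled, 871 genes were called for A485, 5344 for dCBP in place of 3137 and 4605 for IHK-44 in place of 2247, with 6 list genes for A485 and 35 in place of 21 for dCBP. With no filter, 243 genes were called for the A485 dose, 1 for the dCBP dose and 17 for time dependence of A485.

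With 1 library left out, called genes ran from 0 to 257 for A485, 118 to 3883 for dCBP and 125 to 2954 for IHK-44 against DMSO, with the lowest counts without the DMSO library of 6 h. They ran from 0 to 1 for IHK-44 minus dCBP, 16 to 1175 for A485 minus dCBP and 23 to 234 for A485 minus IHK-44. For dose they ran from 7 to 225 (A485), 0 to 349 (dCBP), 3 to 52 (IHK-44) and 0 to 3 (JQAD). For time dependence they ran from 0 to 660 (A485), 225 to 2461 (dCBP) and 505 to 1810 (IHK-44). List genes ran from 0 to 3 (A485), 0 to 30 (dCBP) and 4 to 20 (IHK-44). JQAD against DMSO, its time dependence and NT against DMSO stayed at 0. The lone DMSO library is then assumed to vary like the others. Among members, the A485 dose effect on MYCL passed with DESeq2 or no filter. Under RLE scaling the dCBP time dependence of MGA no longer passed (adjusted p = 0.05338), and that of MXD3 did. A pseudocount of 0.1 moved 3 of 180 library ratios beyond counting error, of MYC and MYCN under IHK-44 at 6 h, each further from 0. TPM moved 103 of 180, TMM factors 11 of 180 and NT as the control 43 of 160. Levels of MYC and MYCN near 1 CPM rest on 14 to 21 counts and limit any order among the 6 h libraries of dCBP and IHK-44.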
